A study of Mus musculus with 14 samples.

Results

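The genes described here are the brakes and accelerators of G1, the phase in which a cell decides whether to copy its DNA. The list holds 10 genes: the D cyclins Ccnd1, Ccnd2, and Ccnd3, their kinase partners Cdk4 and Cdk6, the CDK inhibitors Cdkn1a, Cdkn2a, and Cdkn2b, the tumour suppressor Trp53, and its ubiquitin ligase Mdm2. All probes that carry one of these symbols on the array were taken. They are 17 of the 25697 probes in the table, and they cover 8 of the 10 genes out of 16593 genes named on the array. Cdk4 and Trp53 had no probe under their symbol and are not analysed here. In all, 13 probes of 7 genes were at or above the background level of 7.7 (log2) on at least 7 of the 14 arrays, and these entered the tests.

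mRNA from 7 groups of cultured mouse cells was measured with 2 Illumina arrays per group. Brain-NSCs were neural stem cells (NSCs) grown from the brain of 13.5 dpc fetuses heterozygous for ROSA26 and OG2, an Oct4-GFP reporter, and MEFs were fibroblasts from fetuses of the same genotype and age. The iPSCs came from MEFs of that genotype infected with retroviruses for Oct4, Sox2, Klf4, and c-Myc, and these transgenes stay in the genome of the cells made from them. iPS-NSC#1 and iPS-NSC#3 are a pair of lines differentiated from iPSCs in a dish. iPS-cNSCs were iPSC-derived cells recovered by neomycin selection from the brain of 13.5 dpc chimeric embryos. NED-NSCs were the cells of the host embryo from such brains, so they carry neither the reporters nor the retroviral factors and come from B6C3F1 embryos. ESCs, labelled as OG2 heterozygous double transgenic, were derived from 3.5 dpc blastocysts, and grown on inactivated MEF feeder cells. Neither the labels nor the methods state that the 2 arrays of a group came from separate cultures, or whether a group was 1 clone. The p-values therefore reflect array-to-array spread that could be technical.

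D cyclins bind Cdk4 or Cdk6 and phosphorylate the retinoblastoma protein, which frees E2F factors to switch on genes of DNA replication. The products of Cdkn2b and Cdkn2a (Ink4a) block those kinases, while a second product of Cdkn2a, Arf, is made in another reading frame from its own start and inhibits Mdm2. Mdm2 marks p53 for degradation, and p53 in turn activates Cdkn1a and Mdm2. NSCs in culture are driven through G1 by EGF and FGF2, of which Ccnd1 is a known target, and Bmi1 is known to keep the Cdkn2a locus silent in NSCs.

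The starts of the inhibitor genes are shown first. Cdkn2a and Cdkn2b lie side by side on chromosome 4 and differed from brain-NSCs in opposite directions in ESCs, iPS-NSC#3, and iPS-NSC#1. Of these differences, those of Cdkn2a in iPS-NSC#1 and of Cdkn2b in iPS-NSC#3 were under 2-fold. Cdkn1a is the classical target of p53. Each window is the 250 bases before a RefSeq start (GRCm38.p6), written 5′ to 3′ on the gene's strand, with a motif match in capitals. In the window before the upstream start of Cdkn2a (chr4:89294620-89294869, minus strand), from which Arf is read, the capitals mark an E2F motif. The window before the internal start (chr4:89282193-89282442, minus strand), from which Ink4a is read, held none of the motifs searched. In Cdkn2b (chr4:89311033-89311282, minus strand) they mark a cAMP response element (CRE). Before the first start of Cdkn1a (chr17:29090729-29090978, plus strand) they mark a p53 consensus. The window before a second start of Cdkn1a (chr17:29093519-29093768, plus strand) is not printed.
Cdkn2a, upstream start: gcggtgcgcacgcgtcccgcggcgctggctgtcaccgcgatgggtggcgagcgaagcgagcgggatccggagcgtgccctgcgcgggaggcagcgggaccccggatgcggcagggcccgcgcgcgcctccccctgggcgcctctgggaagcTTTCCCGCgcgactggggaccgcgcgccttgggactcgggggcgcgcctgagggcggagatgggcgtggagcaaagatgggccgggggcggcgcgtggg
Cdkn2a, internal start: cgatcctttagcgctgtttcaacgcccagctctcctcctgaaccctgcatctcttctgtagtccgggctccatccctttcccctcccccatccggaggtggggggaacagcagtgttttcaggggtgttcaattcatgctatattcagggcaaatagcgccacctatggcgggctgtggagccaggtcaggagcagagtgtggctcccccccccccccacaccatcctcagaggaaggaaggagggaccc
Cdkn2b: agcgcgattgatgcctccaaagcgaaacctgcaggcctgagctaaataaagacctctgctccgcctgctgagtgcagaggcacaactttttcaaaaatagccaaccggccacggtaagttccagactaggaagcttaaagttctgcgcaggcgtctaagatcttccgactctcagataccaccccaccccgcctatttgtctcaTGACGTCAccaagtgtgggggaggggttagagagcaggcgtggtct
Cdkn1a: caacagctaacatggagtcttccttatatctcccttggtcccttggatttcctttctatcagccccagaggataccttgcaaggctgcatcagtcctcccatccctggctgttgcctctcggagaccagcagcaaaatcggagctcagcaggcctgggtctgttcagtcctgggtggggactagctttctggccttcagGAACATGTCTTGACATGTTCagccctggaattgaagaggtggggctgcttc

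The E2F motif was searched as TTTCCCGC, TTTGGCGC, TTTGCCGC, or TTTCGCGC on both strands, and 1.86% of 32851 promoter windows of this length held one. Its match before the upstream start of Cdkn2a began 99 bases before the start. The CRE (TGACGTCA) was in 1.55% of windows and began 46 bases before the start of Cdkn2b. The p53 consensus, with at most 1 mismatch outside its core C and G bases, was in 0.0578% of windows and began 51 bases before the first start of Cdkn1a. That allowance was set after a search with no mismatch had missed this site. The window before the second start of Cdkn1a held 0 matches to the p53 consensus and 2 GC boxes. GC boxes (GGGCGG), which occurred in 32.7% of windows, were matched at 2 places before the upstream start of Cdkn2a, overlapping no other match. Of the members, 8 had a promoter window in the table, and Ccnd1 and Ccnd2 had none. A match is a string of letters, and no binding was measured.

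Over the 12195 probes that passed the background filter, values of 2 arrays of a group correlated with r from 0.9891 (iPS-cNSC) to 0.9984 (MEF). Of 10 NSC markers on the array, 7 or 8 were above background on both arrays of each NSC group, and Pax6 and Msi1 were above it in none of these groups. Of 10 pluripotency markers, 9 were above background in ESCs. All 12 fibroblast markers were above background in MEFs (summed signal 90214 to 91930). The same sum was 9888 to 10623 in iPS-NSC#1 (6 markers above background), 4563 to 4714 in iPS-NSC#3, 4575 to 4684 in ESCs (8 markers), and 4114 to 4223 in brain-NSCs. Among the 10 arrays with matched raw intensities, the dimmest spot read 79.8 to 96.2 in MEFs and iPS-cNSCs, against 119.2 to 132.2 elsewhere, and this difference cannot be told apart from the groups.

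Each group was set against brain-NSCs, the fetal counterpart of the other NSCs, and a gene was called at an adjusted p under 0.05 (limma, Benjamini-Hochberg over all kept probes) with a change over 2-fold. One probe, the brightest, stood for each gene in the counts. In iPS-NSC#1, 2 of the 7 measured members were called higher (Cdkn2b and Mdm2) and none lower. Of all 8435 genes, 4.87% were called there (2.92% higher and 1.96% lower). iPS-NSC#3 had 2 members called lower (Ccnd2 and Cdkn2a) and none higher, beside 6.67% of all genes (3.36% higher and 3.32% lower). iPS-cNSCs had 2 called higher (Ccnd1 and Cdkn2b), beside 6.2% of all genes (3.69% higher and 2.51% lower). In NED-NSCs limma called 0 of the 7, beside 4.18% of all genes (2.51% higher and 1.67% lower), and the local-pooled-error test called 0 too. At an unadjusted p under 0.05, 4 members were higher in NED-NSCs and 2 lower. For this and all later counts at an unadjusted p, the share of all genes at that limit was not counted. Such counts therefore do not show that a list differs from the other genes.

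ESCs and MEFs stood further from brain-NSCs. In ESCs 4 members were called lower (Ccnd1, Ccnd2, Cdkn1a, and Cdkn2a) and 1 higher (Cdkn2b), beside 21% of all genes (8.51% higher and 12.5% lower). In MEFs 3 members were called higher (Cdkn2a, Cdkn2b, and Mdm2), beside 24.7% of all genes (11.1% higher and 13.6% lower). All 6 comparisons share the same brain-NSC arrays. Between the in vitro lines, Ccnd2 and Cdkn2a were called higher in iPS-NSC#1 than in iPS-NSC#3, beside 3.02% of all genes (1.9% higher and 1.13% lower). Between iPS-cNSCs and NED-NSCs no member was called by its brightest probe, beside 5.37% of all genes (3.09% higher and 2.28% lower). At an unadjusted p under 0.05, 3 members were higher in iPS-cNSCs and 2 lower, and the local-pooled-error test called 0.

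**Figure D1:**
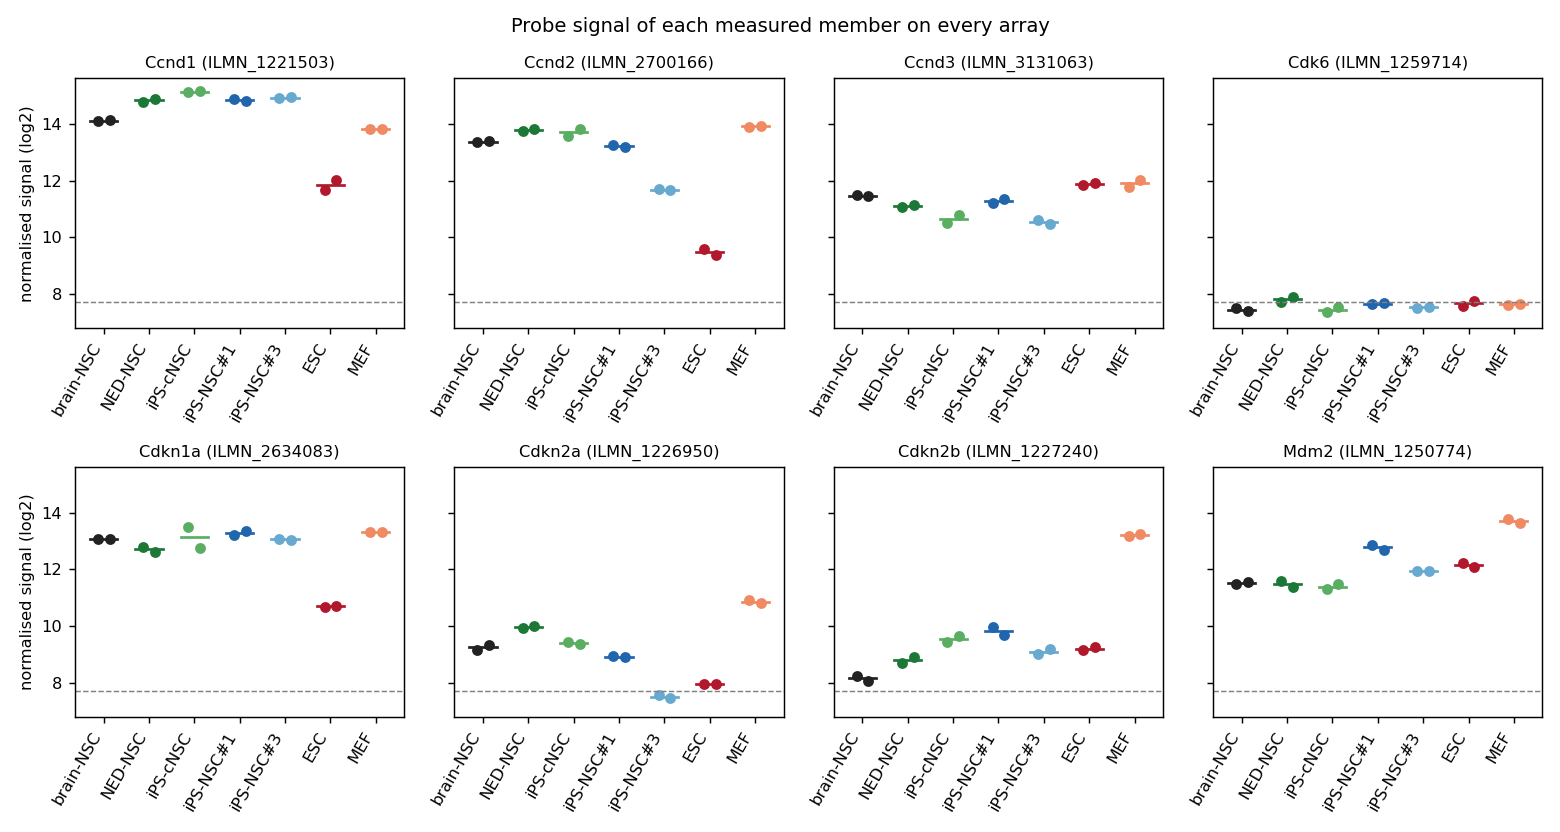
Normalised log2 signal (y axis) of 1 probe for each member with a probe, on each of the 2 arrays (points) of the 7 groups (x axis). Bars are group means and the dashed line is the background level of 7.7. Ccnd1 and Cdkn1a were low in ESCs, Cdkn2b stood at 13.17 and 13.23 in MEFs, and both iPS-NSC#3 arrays were under the line for Cdkn2a.

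Ccnd1 (chr7:144929931-144939831), the D cyclin that growth factor signalling induces, was higher in every derived NSC group than in brain-NSCs. Its main probe (ILMN_1221503) read 14.09 and 14.13 in brain-NSCs, 14.78 and 14.87 in NED-NSCs, 15.11 and 15.14 in iPS-cNSCs, 14.86 and 14.81 in iPS-NSC#1, and 14.91 and 14.94 in iPS-NSC#3. It read 13.80 on both MEF arrays and 11.67 and 12.01 in ESCs. Every array of the 4 derived NSC groups was thus above both brain-NSC arrays, and both ESC arrays were below all others.

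The size of this step was under or near 2-fold. On the log2 scale it was 0.72 in NED-NSCs (adjusted p = 3.2e-05), 0.73 in iPS-NSC#1 (adjusted p = 2.3e-05), 0.81 in iPS-NSC#3 (adjusted p = 6e-06), and 1.01 in iPS-cNSCs (adjusted p = 5.7e-07), each with an SE of 0.098. The 4 derived groups were neighbours in the order of levels and no neighbouring pair among them passed the test (limma adjusted p from 0.093 to 0.96). Pairs further apart did in part. iPS-cNSCs were above NED-NSCs by 0.29 (adjusted p = 0.021), and iPS-NSC#1 differed from iPS-cNSCs by −0.28 (adjusted p = 0.022). iPS-NSC#3 differed from NED-NSCs by 0.10 (adjusted p = 0.49). The call in iPS-cNSCs lies at the threshold: the value was 1.00 without iPS-cNSC replicate 2, 0.99 without brain-NSC replicate 1, and 0.70 when intensities were scaled to a common median.

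The other Ccnd1 probes gave the same direction in NSCs with different sizes. With ILMN_2601471 the 4 differences ran from 0.62 to 0.75. With ILMN_2669793 they were 1.17 in iPS-NSC#1, 1.24 in iPS-NSC#3, and 1.76 in NED-NSCs, all called, and 0.74 in iPS-cNSCs. The last probe also placed iPS-cNSCs below NED-NSCs by −1.03 (adjusted p = 1.9e-05), whereas the main probe gave 0.29 in the opposite direction. In ESCs all 3 probes fell, with values of −2.27, −2.38, and −2.25 (adjusted p from 2.2e-12 to 5.9e-10). In MEFs they gave −0.31, −0.77, and −1.26, and the last was called.

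Ccnd2 (chr6:127125162-127152188) is the D cyclin known for its role in neural progenitors of the developing brain. Its probe (ILMN_2700166) read 13.37 and 13.38 in brain-NSCs, 13.75 and 13.80 in NED-NSCs, 13.58 and 13.82 in iPS-cNSCs, 13.24 and 13.17 in iPS-NSC#1, but 11.69 and 11.67 in iPS-NSC#3. It read 13.90 and 13.93 in MEFs and 9.59 and 9.38 in ESCs. iPS-NSC#3 thus stood apart from every other NSC group, and ESCs were lower still.

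Against brain-NSCs, Ccnd2 was 3.24-fold lower in iPS-NSC#3 (log2 −1.70 ± 0.095 SE, adjusted p = 8.2e-10) and 14.9-fold lower in ESCs (log2 −3.89 ± 0.095 SE, adjusted p = 9.4e-15). The lines made by the same protocol differed from each other as well: iPS-NSC#1 was higher than iPS-NSC#3 by 1.53 (SE 0.095, adjusted p = 6.3e-09). iPS-NSC#1 itself did not pass the test against brain-NSCs (−0.17, adjusted p = 0.16). Differences in the remaining groups were 0.32 in iPS-cNSCs, 0.40 in NED-NSCs, and 0.53 in MEFs.

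Ccnd3 (chr17:47505051-47599689), the third D cyclin, was measured by 1 probe above background (ILMN_3131063). Its arrays read 11.50 and 11.44 in brain-NSCs, 10.50 and 10.79 in iPS-cNSCs, 10.62 and 10.46 in iPS-NSC#3, 11.83 and 11.92 in ESCs, and 11.78 and 12.03 in MEFs. No difference from brain-NSCs was over 2-fold. The values were −0.93 in iPS-NSC#3 (adjusted p = 5.3e-06), −0.83 in iPS-cNSCs (adjusted p = 1.5e-05), 0.40 in ESCs (adjusted p = 0.0044), and 0.44 in MEFs (adjusted p = 0.0022). In ESCs Ccnd3 therefore did not share the fall of Ccnd1 and Ccnd2. A further pair of Ccnd3 probes stayed between 7.31 and 7.82 on all arrays and did not pass the filter.

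Cdk6 (chr5:3341004-3531008), a partner kinase, had 1 probe (ILMN_1259714), which read 7.35 to 7.90 over all 14 arrays. It reached background on both NED-NSC arrays (7.72 and 7.90) and on 1 ESC array (7.76). No fold change is given for it.

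**Figure D2:**
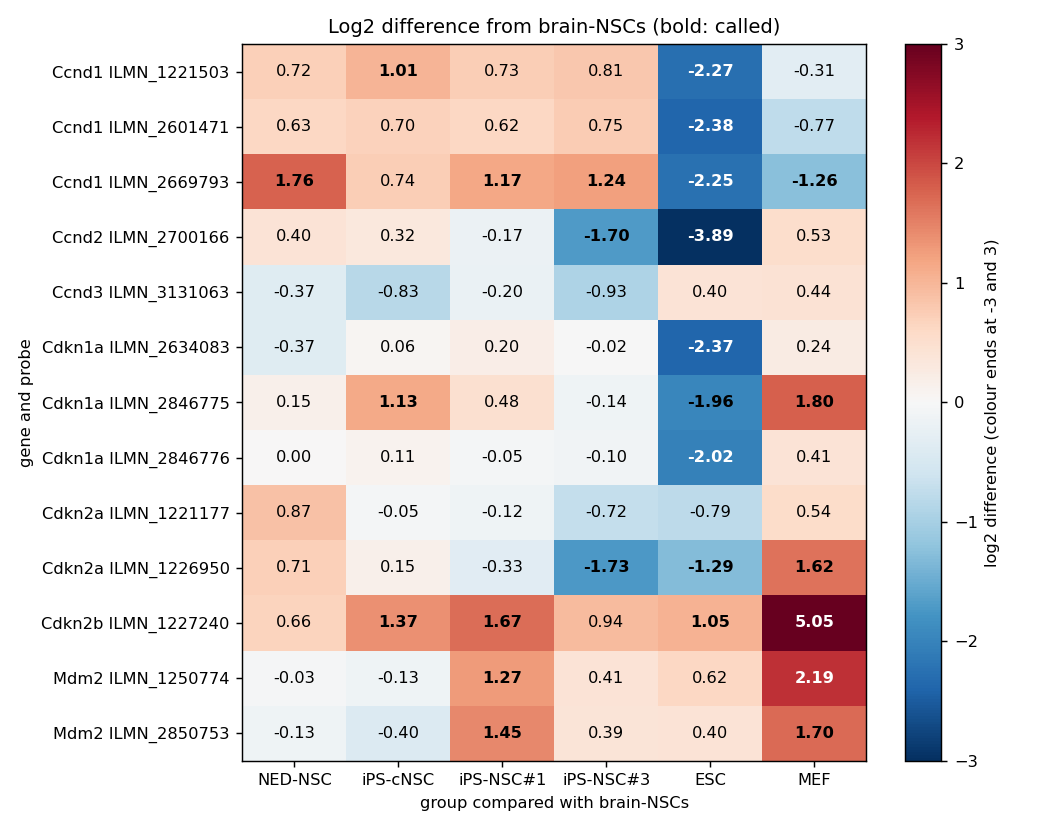
Log2 difference from brain-NSCs for each of the 13 probes that passed the filter (rows) in 6 groups (columns), with colour from blue (lower) to red (higher) and the value in each cell, bold where called. All 3 Ccnd1 and all 3 Cdkn1a probes were lower in ESCs, and the Cdkn2b probe was 5.05 higher in MEFs. Cdkn2a values in iPS-NSC#3 (ILMN_1226950) and ESCs (ILMN_1221177) are from arrays not above background.

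Among the inhibitors, Cdkn2b (chr4:89306289-89311032), which encodes the CDK4 and CDK6 inhibitor Ink4b, had the widest range of all members. Its probe (ILMN_1227240) read 8.24 and 8.07 in brain-NSCs, the lowest of the 7 groups. It read 8.70 and 8.92 in NED-NSCs, 9.0 and 9.19 in iPS-NSC#3, 9.43 and 9.63 in iPS-cNSCs, 9.97 and 9.69 in iPS-NSC#1, 9.16 and 9.24 in ESCs, and 13.17 and 13.23 in MEFs. Every other group lay above both brain-NSC arrays without overlap.

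In MEFs Cdkn2b was 33-fold higher than in brain-NSCs (log2 5.05 ± 0.12 SE, adjusted p = 2.9e-15). It was called higher in iPS-NSC#1 (1.67, adjusted p = 1.6e-08), iPS-cNSCs (1.37, adjusted p = 1.3e-07), and ESCs (1.05, adjusted p = 7.2e-07, but 0.96 without brain-NSC replicate 2). The differences of 0.94 in iPS-NSC#3 and 0.66 in NED-NSCs passed the adjusted p (7e-06 and 0.00035) and not the fold limit. The summed signal of the fibroblast markers was also higher in iPS-NSC#1, at 9888 to 10623 against 4114 to 4223 in brain-NSCs. Of the 12 markers, 6 were above background on neither iPS-NSC#1 array (Col1a1, Col3a1, Lum, Pdgfrb, Postn, and Twist2), against 8 in brain-NSCs. In ESCs, which grow on MEF feeders, 8 of 12 were above background. In bulk RNA, a few cells with much of an RNA and many cells with little of it cannot be told apart, and the part of fibroblast RNA in these values was not tested. In iPS-cNSCs the fibroblast sum was 2632 to 2860, below that of brain-NSCs.

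Cdkn2a (chr4:89274473-89294619), whose transcripts encode Ink4a and Arf, was higher in MEFs like its neighbour but lower than brain-NSCs in ESCs and iPS-NSC#3. In iPS-NSC#1 it was lower by less than 2-fold. With ILMN_1226950 it read 9.15 and 9.34 in brain-NSCs, 9.92 and 9.99 in NED-NSCs, 9.42 and 9.38 in iPS-cNSCs, and 8.93 and 8.91 in iPS-NSC#1. In iPS-NSC#3 it read 7.56 and 7.46, not above background on either array. It read 7.94 and 7.96 in ESCs and 10.91 and 10.81 in MEFs.

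In iPS-NSC#3 the fall of Cdkn2a from brain-NSCs was at least 2.92-fold (adjusted p = 1.9e-10) and that from iPS-NSC#1 at least 2.33-fold (adjusted p = 5e-09), each fold being taken to the background level. It was 2.45-fold lower in ESCs (log2 −1.29 ± 0.086 SE, adjusted p = 1.7e-09) and 3.06-fold higher in MEFs (log2 1.62 ± 0.086 SE, adjusted p = 8.3e-11). In iPS-NSC#1 Cdkn2a was lower by 0.33 (adjusted p = 0.0061), short of the fold limit. In iPS-cNSCs the difference was 0.15 (adjusted p = 0.14). In NED-NSCs it was 0.71 (adjusted p = 9.4e-06), which is 0.56 above iPS-cNSCs (adjusted p = 7.1e-05).

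The second Cdkn2a probe (ILMN_1221177) gave the same direction as the first in every group but iPS-cNSCs. Its differences were −0.72 in iPS-NSC#3 and 0.54 in MEFs, smaller than those of the first probe, and 0.87 in NED-NSCs, where the first gave 0.71. None of these was over 2-fold. With this probe the mean was 8.22 in iPS-NSC#1 and 8.29 in iPS-cNSCs, against 8.34 in brain-NSCs. In iPS-cNSCs this was opposite in direction to the first probe, and did not pass the test (limma adjusted p = 0.71). In iPS-NSC#3 the arrays of the second probe read 7.47 and 7.77, on either side of background. In ESCs they read 7.58 and 7.52, not above background, so that the fall from brain-NSCs was at least 1.56-fold (adjusted p = 3.6e-06). With background correction by neqc the values in NED-NSCs and ESCs were 1.41 and −2.26, both called. The files do not say which of the transcripts of Cdkn2a each probe reads.

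The loss of Cdkn2a signal in iPS-NSC#3 was not seen in Mtap or Cdkn2b, the nearest measured genes on either side. Mtap, the measured neighbour on the side away from Cdkn2b, differed from brain-NSCs by −0.08, and Cdkn2b, on the other side, by 0.94. Ifna1 and Ifna6 differed by 0.00 and 0.02. Their means were near background, at 7.96 and 8.06 in brain-NSCs and 7.97 and 8.08 in iPS-NSC#3. A fall in them could hardly be seen. Further away, Elavl2, a neuronal RNA-binding protein gene, was called lower (−1.83), and Plaa was not (−0.20). Elavl2 was also called lower in iPS-NSC#1 (−1.41) and in MEFs (−1.64).

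Cdkn1a (chr17:29090979-29100722) encodes the inhibitor p21. Its main probe (ILMN_2634083) read 13.05 and 13.08 in brain-NSCs, 12.79 and 12.61 in NED-NSCs, 13.49 and 12.76 in iPS-cNSCs, 13.19 and 13.35 in iPS-NSC#1, 13.07 and 13.03 in iPS-NSC#3, 10.67 and 10.72 in ESCs, and 13.30 and 13.31 in MEFs. ESCs were below all other arrays. The iPS-cNSC arrays were far apart and spanned the brain-NSC values.

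In ESCs all 3 Cdkn1a probes were called lower, at −2.37 ± 0.16 SE (adjusted p = 1.9e-09), −1.96, and −2.02. The p53 consensus printed above lies before the first RefSeq start of this gene. In MEFs and iPS-cNSCs the probes did not give one answer. ILMN_2846775 was called higher in MEFs (1.80, adjusted p = 8.6e-11) and in iPS-cNSCs (1.13, adjusted p = 1.6e-07), while ILMN_2634083 gave 0.24 and 0.06 and ILMN_2846776 gave 0.41 and 0.11. These groups are also the ones whose arrays had the dimmest spots, and the part of this in the probe difference was not tested. With intensities corrected by neqc, the values in MEFs were 1.91 for ILMN_2846775, 0.25 for ILMN_2634083, and 0.46 for ILMN_2846776, and those in iPS-cNSCs were 1.22, 0.06, and 0.12.

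Mdm2 (chr10:117688875-117710758), the ligase that p53 itself switches on, was raised in iPS-NSC#1 and MEFs by both probes above background. With ILMN_1250774 it read 11.48 and 11.56 in brain-NSCs, 11.59 and 11.38 in NED-NSCs, 11.29 and 11.48 in iPS-cNSCs, 12.87 and 12.69 in iPS-NSC#1, 11.92 and 11.92 in iPS-NSC#3, 12.21 and 12.07 in ESCs, and 13.76 and 13.64 in MEFs. The iPS-NSC#1 arrays were above all arrays but those of MEFs.

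The rise in iPS-NSC#1 was 1.27 ± 0.1 SE with ILMN_1250774 (2.41-fold, adjusted p = 8.3e-08) and 1.45 ± 0.093 SE with ILMN_2850753 (2.74-fold, adjusted p = 6.8e-09). In MEFs it was 2.19 (4.55-fold, adjusted p = 1.4e-11) and 1.70 (3.24-fold, adjusted p = 1.3e-10). Against iPS-NSC#3, iPS-NSC#1 was higher by 0.86 and 1.07, of which the second was called (adjusted p = 3.4e-07). It was 0.97 without iPS-NSC#1 replicate 2. Another Mdm2 probe (ILMN_1229882) stayed between 7.28 and 7.84 on all arrays.

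Chromosome 10, on which Mdm2 lies, was itself raised in iPS-NSC#1. Over its 416 measured genes the median difference from brain-NSCs was 0.33 in iPS-NSC#1, against −0.02 over all 8435 genes. It was 0.31 against iPS-NSC#3. In the other comparisons with brain-NSCs the chromosome 10 median lay between −0.06 and 0.00. Of the 416 genes, 33 were called higher in iPS-NSC#1 and 2 lower. The Mdm2 rise of 1.27 and 1.45 is larger than this shift, and the part of the shift in it was not tested. Among the nearest measured genes, which were looked at after the values were seen, Rap1b was called higher in iPS-NSC#1 (1.12), Slc35e3 differed by 0.78, Yeats4 by 0.41, Nup107 by 0.26, Cct2 by −0.03, and Cpsf6 by −0.44.

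**Figure D3:**
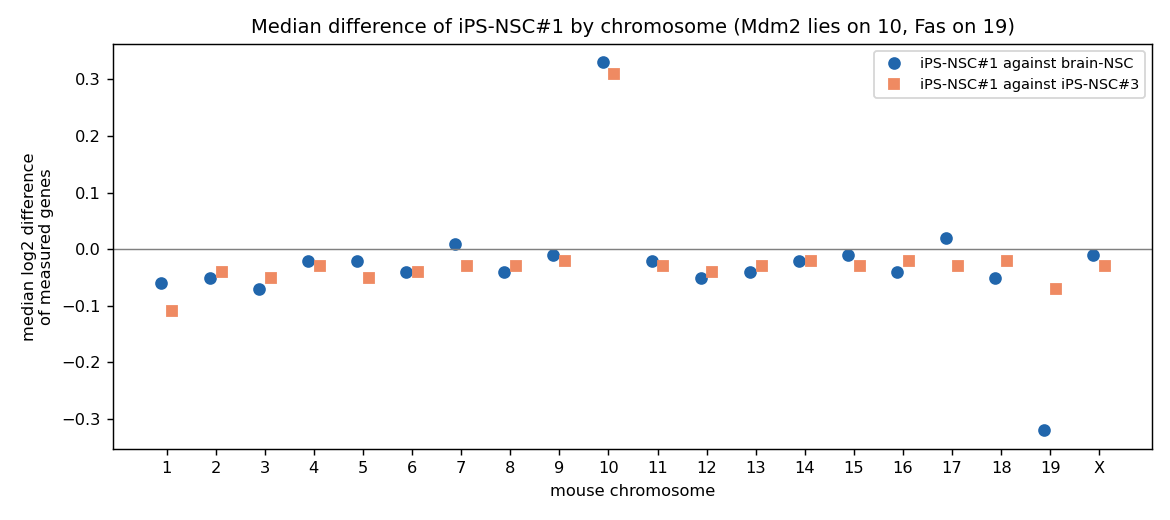
Median log2 difference over the measured genes of each mouse chromosome (y axis; chromosomes on the x axis) for iPS-NSC#1 against brain-NSCs (circles) and against iPS-NSC#3 (squares). Chromosome 10 stood at 0.33 and 0.31, and chromosome 19 at −0.32 and −0.07.

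To see the state of the pathway around the members, lists of G1/S partners, E2F targets, p53 targets, p53 regulators, and regulators of the Ink4/Arf locus were counted. Among 20 measured G1/S partners, Cdkn1c, the p57 inhibitor and an imprinted gene, was called in 4 of the 6 comparisons. It read 9.26 on both brain-NSC arrays, 7.38 and 7.35 in NED-NSCs, 8.77 and 8.76 in iPS-cNSCs, 11.44 and 11.34 in iPS-NSC#1, 9.51 and 9.50 in iPS-NSC#3, 10.84 and 10.71 in ESCs, and 12.53 and 12.59 in MEFs. It was called higher in iPS-NSC#1 (2.13, adjusted p = 1.1e-11), ESCs (1.51), and MEFs (3.30). In NED-NSCs it was not above background, a fall of at least 2.94-fold from brain-NSCs (adjusted p = 5.8e-11).

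Of the other partners, E2f2 was called higher in iPS-NSC#1 (1.07, but 1.0 without brain-NSC array 2) and iPS-NSC#3 (1.19), and Cdc25a, a phosphatase that activates CDKs, in iPS-NSC#3 (1.11). With Cdkn1c this made 2 of 20 called in each line, beside 4.87% and 6.67% of all genes. The list's median change was −0.02 in iPS-NSC#1 and 0.20 in iPS-NSC#3, beside −0.02 and −0.01 over all genes. In iPS-cNSCs limma and the local-pooled-error test called 0 of the 20, with changes from −0.94 to 0.99. At an unadjusted p under 0.05 there were 8 higher and 6 lower, and the share of all genes at that limit was not counted.

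In ESCs 4 of the 20 were called higher and 2 lower, beside 8.51% and 12.5% of all genes. E2f4 rose by 1.96, and the Ink4 family gene Cdkn2c fell by 2.32 on the log2 scale. In MEFs 1 was called higher and 7 lower, beside 11.1% and 13.6% of all genes. Among those that fell there were Ccne2, cyclin E2 (−2.18), and Cdkn2c (−2.15).

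E2F targets, the replication genes that D cyclins act on through the retinoblastoma protein, set MEFs apart. Of 19 measured, 16 were called lower and none higher in MEFs, where 13.6% of all genes were called lower, with a median of −1.77 beside −0.14 over all genes. Those with the largest changes were Top2a (−2.61), Mcm5 (−2.51), and Tk1 (−2.44). In ESCs 5 were called higher (median 0.32, all genes −0.05), beside 8.51% of all genes, with Mybl2 at 1.87, Cdt1 at 1.5, and Mcm5 at 1.10. Mcm2 and Cdc6 were called at 1.05 each, but stood at 0.96 and 0.89 without ESC array 2. Cdt1, Mcm5, and E2f4 lie on chromosome 8, whose 461 measured genes had a median of 0.29 in ESCs and also in iPS-cNSCs. The part of this shift in their values was not tested. In iPS-cNSCs Rrm2 (1.19) and Pcna (1.08) were called higher, beside 3.69% of all genes, while the median was −0.17. Both calls rest on iPS-cNSC array 1. Pcna read 11.53 on it and 10.0 on the other, against 9.6 and 9.78 in brain-NSCs, and without it the differences were 0.32 for Pcna and 0.89 for Rrm2. A second Rrm2 probe (ILMN_2714565) had means of 10.2 in iPS-cNSCs and 10.4 in brain-NSCs.

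In iPS-NSC#1, iPS-NSC#3, and NED-NSCs limma and the local-pooled-error test called 0 of the 19 E2F targets, with medians of −0.19, −0.01, and −0.11. At an unadjusted p under 0.05 there were 2 higher and 9 lower in iPS-NSC#1, 2 and 5 in iPS-NSC#3, and 1 and 5 in NED-NSCs. The low Ccnd2 and Cdkn2a of iPS-NSC#3 and the raised Cdkn2b of iPS-NSC#1 thus stood beside E2F target medians within 0.2 of brain-NSCs.

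**Figure D4:**
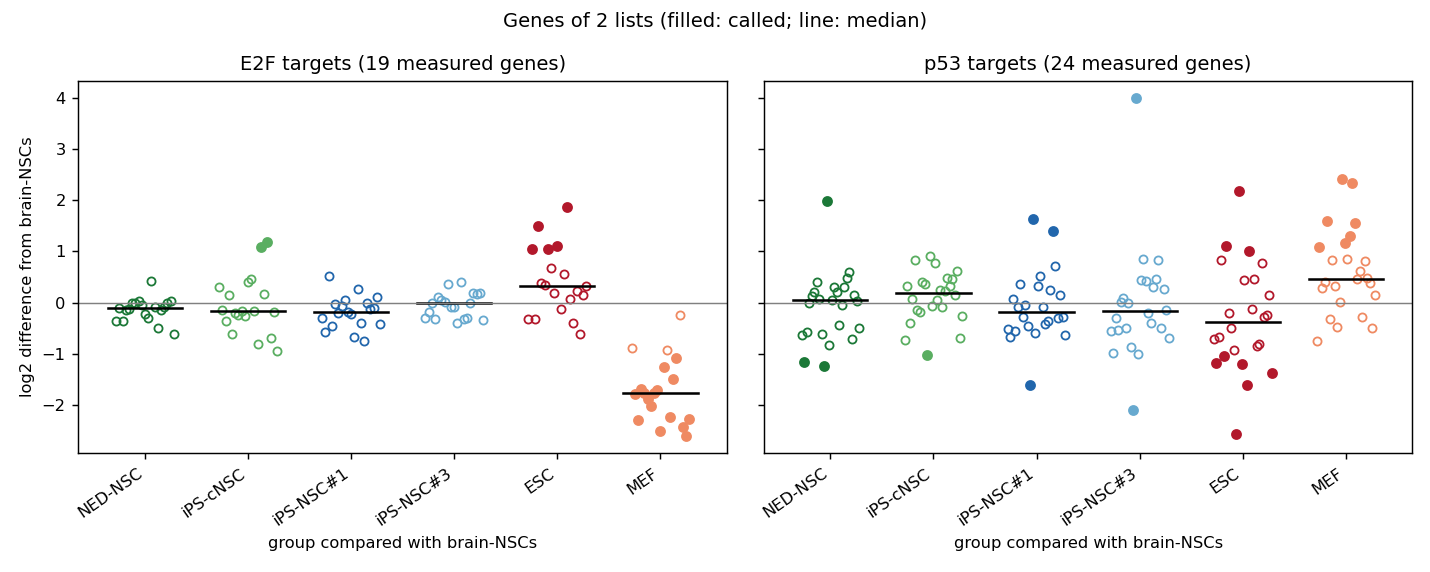
Log2 difference from brain-NSCs (y axis) of each measured E2F target (left, 19 genes) and p53 target (right, 24 genes) in 6 groups (x axis). Filled points are called, open points are not, and lines are medians. The E2F target median was −1.77 in MEFs, and the highest p53 target in iPS-NSC#3 was Gadd45a at 4.0.

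Among 24 measured p53 targets, 7 were called higher and none lower in MEFs (median 0.47, all genes −0.14; 11.1% of all genes higher and 13.6% lower), where Mdm2 and 1 probe of Cdkn1a were high too. Gadd45a rose by 2.41, Pmaip1, which encodes the apoptosis inducer Noxa, by 2.34, and Ccng1, cyclin G1, by 1.60. In ESCs 3 were called higher and 6 lower (median −0.38, all genes −0.05), beside 8.51% and 12.5% of all genes. Fas (−2.56) and Plk2 (−1.62) fell, while Gadd45a rose by 2.18. Ccng1 was called lower by its brightest probe (−1.05, but −0.94 without brain-NSC array 1). Its probes ILMN_2702233 and ILMN_2710229 had higher means in ESCs (11.34 and 12.46) than in brain-NSCs (10.84 and 12.14). Pmaip1 was called higher (1.01, but 0.97 without ESC array 2).

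Of the 24, iPS-NSC#1 had 2 called higher (Gadd45a 1.63 and Sesn1 1.39) and 1 lower (Fas −1.62), beside 4.87% of all genes called, and NED-NSCs had 1 higher (Gadd45a 1.99) and 2 lower (Fas −1.24 and Ak1 −1.17), beside 4.18%. In iPS-cNSCs Fas was the 1 call (−1.03, but −0.88 without iPS-cNSC array 1), beside 6.2%. iPS-NSC#3 had 1 call in each direction (Gadd45a and Fas), beside 6.67%. The median change of the list was −0.19 in iPS-NSC#1, −0.17 in iPS-NSC#3, 0.19 in iPS-cNSCs, and 0.05 in NED-NSCs. Sesn1 lies on chromosome 10 like Mdm2, and the part of that chromosome's shift of 0.33 in its value was not tested.

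Gadd45a, a gene of growth arrest after DNA damage, was the p53 target with the largest change. It read 8.84 and 9.19 in brain-NSCs and 12.89 and 13.13 in iPS-NSC#3, a rise of 4.0 ± 0.14 SE (adjusted p = 2.1e-12). Its arrays read 10.63 and 10.65 in iPS-NSC#1, 11.06 and 10.96 in NED-NSCs, 9.71 and 10.16 in iPS-cNSCs, 11.17 and 11.22 in ESCs, and 11.45 and 11.39 in MEFs. iPS-NSC#3 was above every other array, in the line where Cdkn1a differed from brain-NSCs by −0.02.

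Fas, a death receptor gene, read 10.31 and 10.34 in brain-NSCs and was called lower in all 4 derived NSC groups, from −1.03 in iPS-cNSCs to −2.10 in iPS-NSC#3. MEFs were level with brain-NSCs (10.35 and 10.33). A second, dimmer Fas probe (ILMN_2479290) gave the same direction in the derived groups with smaller steps. Its means were 9.06 in brain-NSCs, 8.3 in NED-NSCs, 8.21 in iPS-cNSCs, 8.11 in iPS-NSC#1, 7.78 in iPS-NSC#3, and 8.83 in MEFs. Fas lies on chromosome 19, whose 301 measured genes had a median between −0.29 and −0.44 in all 6 comparisons with the same brain-NSC arrays. The part of this shift in the Fas values was not tested.

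Of 16 measured regulators and relatives of p53, 3 were called higher in ESCs, beside 8.51% of all genes, and none lower, beside 12.5%. They were the deacetylase gene Sirt1 (2.04), the deubiquitinase gene Usp7 (1.56), and the checkpoint kinase gene Chek2 (1.02, but 0.86 without ESC array 2). In MEFs the ubiquitin ligase Cop1 was called higher (1.05) and the phosphatase Ppm1d lower (−1.57), beside 24.7% of all genes called in either direction. In each of the 4 derived NSC groups limma and the local-pooled-error test called 0 of the 16. At an unadjusted p under 0.05 there were 3 higher and 4 lower in iPS-NSC#1, 2 and 4 in iPS-NSC#3, 2 and 8 in iPS-cNSCs, and 3 and 6 in NED-NSCs.

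Of 17 measured regulators of the Ink4/Arf locus, many of them Polycomb group genes, 4 were called higher and 4 lower in ESCs, beside 21% of all genes called. The Polycomb gene Cbx7 rose by 3.47, Ets1, an activator of Ink4a, fell (−3.34), and Tbx3, a repressor of the locus, was at least 6.47-fold higher than in brain-NSCs, where it was not above background. Bmi1, next by size of change, fell as well (−2.53). In MEFs, which were highest of the 7 groups for Cdkn2b and for Cdkn2a with ILMN_1226950 (with ILMN_1221177 NED-NSCs were above them by 0.34, adjusted p = 0.0069), the methyltransferase gene Ezh2 (−2.22) and Bmi1 (−1.81) fell, and Tbx3 was at least 3.38-fold higher. In all, 2 were called higher and 3 lower in MEFs, a share near the 24.7% of all genes. A link of these regulators to the Cdkn2a and Cdkn2b values was not tested.

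In iPS-NSC#3, where Cdkn2a was not above background, limma and the local-pooled-error test called 0 of these 17 regulators (3 higher and 5 lower at an unadjusted p under 0.05, median 0.02). The same held in iPS-NSC#1, with 4 and 5. Id1, a repressor of Ink4a, was called lower in iPS-cNSCs (−1.41), and Ets2 was called higher in NED-NSCs (1.00, but 0.94 without brain-NSC array 2).

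Trp53 could not be read, and the nearest measured genes on chromosome 11 were Wrap53, Efnb3, Kdm6b, Atp1b2, Sat2, and Mpdu1. Wrap53, which lies head to head with Trp53, differed from brain-NSCs by 0.05 to 0.46 over the 6 groups and was not called. Atp1b2, a sodium pump subunit of glial cells, was called higher in NED-NSCs (2.63) and iPS-cNSCs (1.87) and lower in ESCs (−2.42) and MEFs, where it was not above background and the fall was at least 6.39-fold. The other 4 had no call. Over the 720 measured genes of chromosome 11 the median difference from brain-NSCs was 0.14 in NED-NSCs, beside −0.01 over all genes. There 30 were called higher and 2 lower. In iPS-cNSCs the chromosome 11 median was −0.10. The part of this in the values of Atp1b2 and the other neighbours was not tested.

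Genes with the pattern most like each member were found by Pearson's r over the 14 arrays, which form 7 groups of 2. For Ccnd1 they were Ogfr (0.991), Tmem198b (0.977), and Pik3r1 (0.976), and for Ccnd2 they were Arf2 (0.972), Meis2 (0.971), and Zfand3 (0.969). Cdkn1a was followed by Dync1li2 (0.987), Vopp1 (0.978), and Nfix (0.973). For Cdkn2a the genes were Ext1 (0.968), Nbl1 (0.966), and Gadd45g (0.965). Of these, Gadd45g had means of 13.01 in brain-NSCs, 12.35 in iPS-NSC#1, and 10.58 in iPS-NSC#3.

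Cdkn2b was followed by Zxda (0.983), Wwc2 (0.983), and Ltbp1 (0.979), in all of which MEFs had the highest mean, as in Cdkn2b itself, by which they were chosen. The genes most like Mdm2 were Ccn2 (0.963), Hspg2 (0.949), and Nuak1 (0.949). Ccn2, which encodes a matricellular growth factor, had means of 8.10 in brain-NSCs, 12.11 in iPS-NSC#1, 9.45 in iPS-NSC#3, and 15.47 in MEFs.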

How the data were processed

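Each of the 7 groups, set by the labels, had 2 Illumina MouseRef-8 v2 arrays of its mRNA. The authors extracted intensity values and detection p-values with GenomeStudio 2011.1. One deposited table gives, probe by probe, these intensities in arbitrary units and the detection p-value, and the other the deposited log2 values, normalized by the authors with the quantile method. The log2 values cover all 14 arrays and were used as they are. In the table of intensities 10 signal columns matched an array by name, and 8 columns (those of the iPS-NSCs with their p-values) were not used. Quantile normalization gives every array the same spread of values, so a change in total mRNA is not seen.

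The detection p-value crosses 0.05 at 7.68 to 7.74 (log2) on the 10 matched arrays, and 7.7 was used as background for all, with the same answer for 98.2% to 99.8% of probes. Of 25697 probes, 12195 were at or above it on 7 or more arrays and were kept, and 8435 genes were represented by their brightest kept probe. Gene symbols came from the platform table (23978 probes with 1 symbol, 1719 with none), and positions, chromosomes, and promoters from RefSeq (GRCm38.p6).

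In R 4.3.3, limma 3.58.1 fitted 1 mean per group to all 14 arrays (degrees of freedom 7 residual and 8.2 prior, with 0.099 as prior SD). Calls need an adjusted p under 0.05 and a log2 change over 1. The fit was tested on simulated data. Where no array of a group was above background, a fold is a lower bound, from the brighter group's mean to the lowest value above background. Precision is limited by 2 arrays per group. Alternatives were filters on dim probes, a repeated quantile step, the local-pooled-error test of the methods (coded anew), neqc and median scaling of intensities, a replicate block, and leaving out each array.

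Named genes are all member probes, up to 3 called genes of the largest change per list and comparison with brain-NSCs, the 3 genes most like each member whose group means span over 2, and 3 measured neighbours on each side of Cdkn2a and Trp53. In ESCs, Bmi1 was named beyond this rule, as were Ccng1, Pmaip1, Mcm2, and Cdc6 for the limits of their calls. The members, lists, and rules were chosen with earlier results of these data known. The neighbours of Mdm2, the medians by chromosome, and the differences of listed genes without 1 array (no test) were added after the values were seen.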

Additional observations from a re-analysis of the deposited data

Results flagged for a closer look

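The lines iPS-NSC#1 and iPS-NSC#3 differed from each other, by the test of that difference, in Ccnd2 (higher in iPS-NSC#1 by 1.53), in Cdkn2a with ILMN_1226950 (a measured 1.4, at least 2.33-fold, since neither iPS-NSC#3 array was above background), and in Mdm2 with ILMN_2850753 (by 1.07). Of all genes, 3.02% were called between the lines. iPS-cNSCs and NED-NSCs, both from chimeric brains, differed in Ccnd1 with ILMN_2669793 (by −1.03), beside 5.37% of all genes. The main Ccnd1 probe gave 0.29 there.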

How the results depend on the processing

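No direction of a member's called value turned under any alternative that was run. Counts of called genes rose with neqc, to 1500 from 523 in iPS-cNSC against brain-NSC (754 higher and 746 lower, from 311 and 212), 861 from 353 in NED-NSC against brain-NSC, 2984 from 1770 in ESC against brain-NSC, 3477 from 2084 in MEF against brain-NSC, and 1286 from 453 in iPS-cNSC against NED-NSC. Median scaling gave 1016 in iPS-cNSC against brain-NSC (301 higher and 715 lower) and 1037 in iPS-cNSC against NED-NSC (291 and 746), with a median change over all genes of −0.23 and −0.16. For MEF against brain-NSC the all-gene median was −0.23 with neqc, and for ESC it was 0.14 with median scaling. The cause of these changes was not tested. Without 1 array the counts were 408 to 439 (iPS-NSC#1), 557 to 585 (iPS-NSC#3), 523 to 581 (iPS-cNSC), 346 to 377 (NED-NSC), 1767 to 1795 (ESC), 2084 to 2109 (MEF), 428 to 548 (iPS-cNSC against NED-NSC), and 255 to 268 (iPS-NSC#1 against iPS-NSC#3).

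Members called in iPS-cNSCs were 1 in place of 2 with median scaling, without iPS-cNSC replicate 2, and without brain-NSC replicate 1, each time by loss of Ccnd1. Without iPS-NSC#3 replicate 1 there were 4 in place of 2 in that line, with Ccnd3 at −1.01 and Cdkn2b at 1.04. Counted by the brightest probe, Cdkn2b became the 1 member called with neqc in NED-NSCs (1.24) and between iPS-cNSCs and NED-NSCs (1.01). The dimmer Cdkn2a probe ILMN_1221177 was called with neqc in NED-NSCs (1.41) and ESCs (−2.26), and between iPS-cNSCs and NED-NSCs at −1.51 with neqc and −1.15 with median scaling. Cdkn1a with ILMN_2846775 was called between the last pair at 1.04 to 1.09 under 4 settings. Ccnd1 with ILMN_2669793 was 0.95 in iPS-NSC#1 without its replicate 2. Between iPS-cNSCs and NED-NSCs that probe was −0.92 with median scaling and −0.91 without iPS-cNSC replicate 2.

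Replicate numbers were shared between groups, but same-numbered arrays did not deviate together (correlations from −0.24 to 0.12 over 21 pairs of groups), so the numbers pair nothing. With the replicate block the counts of called genes were 411, 563, 523, 353, 1770, 2084, 453, and 255, as without it.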
